A study of Mus musculus with 3 samples.

Results

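The genes described here are the ligands and receptors of a pair of chemokine axes, Cxcl9 (ENSMUSG00000029417) and Cxcl10 (ENSMUSG00000034855) with their receptor Cxcr3 (ENSMUSG00000050232), and Cxcl16 (ENSMUSG00000018920) with its receptor Cxcr6 (ENSMUSG00000048521). These 5 members of the 33696 genes in the deposited matrices were chosen by name, as 3 ligands and 2 receptors, and each had 1 row in the files. In kept cells of all libraries together they held 61011 UMIs for Cxcl9, 101963 for Cxcl10, 38504 for Cxcl16, 20484 for Cxcr3 and 54897 for Cxcr6.

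CXCL9 and CXCL10 are secreted chemokines that interferon-gamma induces in myeloid cells and other cells, and both bind CXCR3, a receptor of activated T cells and NK cells that signals through inhibitory G proteins and guides cells along the ligand gradient. CXCL16 is made as a membrane protein by macrophages and dendritic cells and can be shed by proteases such as ADAM10, and its receptor CXCR6 marks effector and tissue-resident T cells. In tumors, both axes are known for positioning T cells next to myeloid cells.

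KP1 is a small-cell lung cancer (SCLC) line from a mouse tumor with mutant Rb and p53. Wild-type B6129SF1/J (F1) mice carried subcutaneous KP1 tumors from 500000 cells, and live CD45+ tumor-infiltrating leukocytes (TILs) were sorted on day 19 for 3′ single-cell RNA-seq. Each of the 3 groups was 1 library, and the number of mice pooled in it is not stated. The mono-IL-10 group ("Supermono-10" in the labels) received an engineered IL-10 alone, the IL-10/2-Trikine group received a fusion designed to bring an IL-2 receptor chain to the receptor complex of that IL-10, and the combination group was given anti-PD-1 in addition to the IL-10/2-Trikine. Cytokine was given at 3 µg per dose on alternate days from day 7, although the methods give another first day elsewhere, and the antibody at 200 µg on days 7, 11 and 15 and again on day 19. The protocol can also be read as antibody for every group. Only the combination carries the antibody in its title and treatment label, and those were followed here. If every group had received it, the comparison of the combination with the IL-10/2-Trikine would not measure anti-PD-1.

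Promoters of 4 of the 5 members were found in the RefSeq table of build GRCm38.p6, from 250 bases before to 50 bases after the gene start. Those of Cxcl9 (chr5:92328030-92328329, minus strand) and Cxcl10 (chr5:92348840-92349139, minus strand) are shown because these neighboring ligand genes share an inducer. Capitals mark matches to 4 motifs searched on both strands.
Cxcl9: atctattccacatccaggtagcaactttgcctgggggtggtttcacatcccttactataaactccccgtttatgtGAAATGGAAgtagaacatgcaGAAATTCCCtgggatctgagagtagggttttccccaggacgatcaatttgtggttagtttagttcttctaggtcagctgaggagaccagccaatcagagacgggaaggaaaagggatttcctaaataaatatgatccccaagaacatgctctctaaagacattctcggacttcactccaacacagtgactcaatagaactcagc
Cxcl10: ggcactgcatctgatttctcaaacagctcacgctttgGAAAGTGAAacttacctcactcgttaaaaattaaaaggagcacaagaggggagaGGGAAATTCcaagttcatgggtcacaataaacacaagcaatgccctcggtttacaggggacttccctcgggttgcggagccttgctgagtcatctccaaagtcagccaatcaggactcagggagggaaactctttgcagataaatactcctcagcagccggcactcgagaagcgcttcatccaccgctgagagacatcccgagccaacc
Each held 1 interferon-stimulated response element core (GAAANNGAA), whose first base lay 175 bases before the start in Cxcl9 and 213 before it in Cxcl10. Each also held 1 NF-kappaB type motif (GGGANNTTC), at 154 bases before the start in Cxcl9, on the opposite strand, and at 159 in Cxcl10. Of 32851 promoters of this length, 8.56% held the first motif and 3.94% the other. Neither ligand promoter held the gamma interferon activation site TTCNNNGAA (8.30% of promoters) or the T-box site GGTGTGA (3.98%), and the promoters of Cxcr3 and Cxcr6 held none of the 4. A match is a description of these letters only.

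Kept barcodes had 200 or more genes detected and mitochondrial UMIs of 20% or less, which left 22235 cells of mono-IL-10, 22707 of the IL-10/2-Trikine and 26967 of the combination. The deposited matrices held between 158570946 and 197176873 UMIs per library, and pairs of libraries shared 137 to 180 kept barcode sequences. Clusters were named "-like" from marker lists that held no member. The labels call the cells T cells, yet T cell-like cells were 37.4%, 43.7% and 45.8% of kept cells in the order mono-IL-10, IL-10/2-Trikine and combination, which is the order of every set of 3 values below. C1q macrophage-like cells were 18.8%, 8.02% and 16.1%, inflammatory monocyte-like cells 7.80%, 7.84% and 6.38%, and KP1 tumor cell-like cells, which the sort should have removed, 3.58%, 4.40% and 3.56%. Clusters that mixed C1q or other myeloid genes with Cd3 were kept out of these classes.

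Levels are CPM, the UMIs of a gene in a class and library scaled to the usual common total of UMIs. A ratio is called past the limit when it is at least 1.5-fold with at least 20 UMIs in the pair of libraries, and the percent of all genes past that limit is given as background. With 1 library per group there is no replicate check and no test, and the 95% intervals cover counting error only. The same IL-10/2-Trikine library stands in both comparisons. Free RNA was read from barcodes of 10 to 100 UMIs, and its part in a kept cell was not measured. T cell-like cells, which should lack Cxcl9, had 2.49, 1.42 and 3.50 CPM of it, beside free RNA at 104.6, 39.9 and 123.2 CPM. A class below the free RNA level is thus not shown to be at background.

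T cells held most of the receptor UMIs, and macrophages and monocytes held most of the ligand UMIs except for Cxcl10 in the IL-10/2-Trikine library. C1q macrophage-like cells held 58.0%, 41.2% and 63.0% of all Cxcl16 UMIs and 39.1%, 23.9% and 41.6% of Cxcl9 UMIs. Inflammatory monocyte-like cells held 38.1%, 33.4% and 37.5% of Cxcl9 UMIs and 64.4%, 46.2% and 65.7% of Cxcl10 UMIs. For Cxcl10, C1q macrophage-like cells held 4.69%, 2.09% and 3.43%, T cell-like cells 7.59%, 16.4% and 12.7%, and barcodes that mixed Cd3 genes with other myeloid genes 3.63%, 13.3% and 3.76% and with C1q genes 4.62%, 3.39% and 1.39%. T cell-like cells held 65.0%, 57.2% and 73.1% of Cxcr3 UMIs and 68.9%, 67.3% and 85.2% of Cxcr6 UMIs. A further 23.4% of Cxcr3 UMIs in the IL-10/2-Trikine library lay in a cluster led by NK receptor genes and Trdc, which was 14.2% of its cells.

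**Figure D1:**
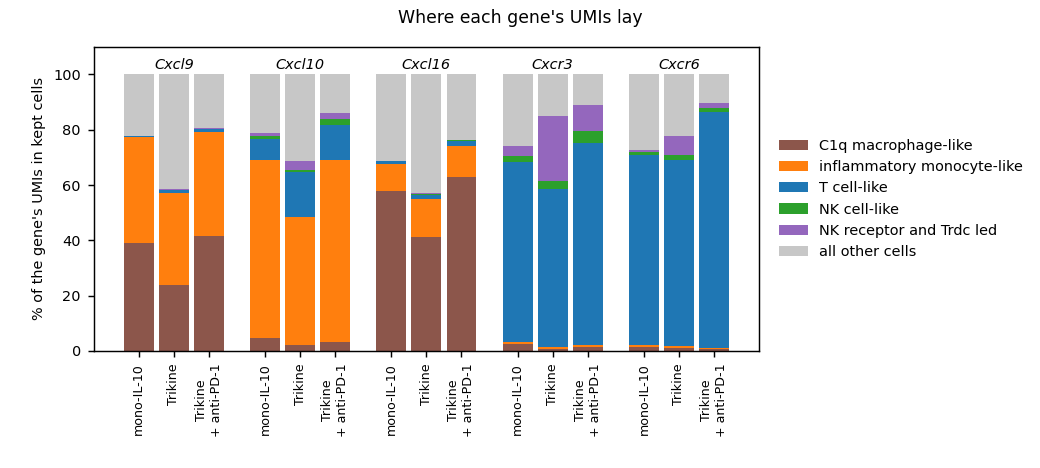
Percent of each gene's UMIs in kept cells (y axis) that lay in each cell class, 1 bar per gene and library, with colors for classes. Monocyte-like cells held 46.2% to 65.7% of Cxcl10 UMIs, and the IL-10/2-Trikine bars have the largest share outside the named classes for the ligands.

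In macrophages, monocytes and type 2 dendritic cells Cxcl9 was highest in the combination, but not in the smaller dendritic classes. C1q macrophage-like cells (4180, 1821 and 4349 cells) had 301.9, 298.0 and 455.7 CPM of Cxcl9. The mono-IL-10 and IL-10/2-Trikine values lay side by side, with a ratio of 0.987 (0.947 to 1.03), and the combination stood above both, 1.53-fold (1.47 to 1.59) over the IL-10/2-Trikine. Counted per cell, macrophages held 2.15, 1.65 and 2.44 UMIs of Cxcl9, so that the combination was just inside the limit. Inflammatory monocyte-like cells had 622.6, 374.7 and 754.7 CPM of Cxcl9. There the IL-10/2-Trikine was the lowest, at 0.602 (0.580 to 0.625) of mono-IL-10, and the combination was 2.01-fold (1.94 to 2.09) over it. cDC2-like cells (179, 269 and 216 cells) had 328.7, 281 and 424 CPM, with ratios of 0.855 (0.767 to 0.954) and 1.51 (1.36 to 1.67). Counted per cell they held 3.51, 2.62 and 3.69 UMIs, inside the limit in both comparisons. In cDC2-like cells the 10 cells with most Cxcl9 UMIs held 56.5%, 55.2% and 47.6% of them. cDC1-like cells (92, 121 and 47 cells) had 133, 177.9 and 145.4 CPM of Cxcl9, highest in the IL-10/2-Trikine. Mature DC-like cells (44, 63 and 47 cells) had 204, 179.8 and 178.7 CPM, with counting intervals that overlapped.

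The difference in Cxcl9 between the combination and the IL-10/2-Trikine was larger in resting macrophages, those with no UMI of the proliferation genes Mki67 or Top2a. Resting cells had 338.1, 339.9 and 567.8 CPM of Cxcl9, and cycling cells 268.5, 265.1 and 333.6 CPM. The combination was 1.67-fold (1.58 to 1.77) over the IL-10/2-Trikine in resting cells and 1.26-fold (1.19 to 1.34) in cycling cells, the latter inside the limit. Cycling cells were 42.2%, 46.7% and 39.1% of the class. After thinning each cell to 1000 UMIs, 13.6%, 13.5% and 20.1% of macrophages and 17.3%, 14.3% and 24.3% of monocytes had a UMI of Cxcl9, against 0.296%, 0.173% and 0.339% of T cell-like cells, which should lack it. Median depth was 6552.5, 5085 and 5152 UMIs in macrophages and 3941, 4768.5 and 3787 in T cell-like cells. Without thinning the Cxcl9 shares were 29.9%, 29.6% and 39.1% of macrophages and 31.0%, 24.4% and 43.0% of monocytes. The combination had the highest share in both classes, thinned or not.

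In the clusters led by tumor and neutrophil genes, Cxcl9 rested on few cells. KP1 tumor cell-like cells (796, 1000 and 961 cells) had 101.6, 21.5 and 32.0 CPM of Cxcl9. In mono-IL-10, 1 cell held 207 of the 501 UMIs, and without the 10 highest cells of each library the levels were 10.4, 8.79 and 10.8 CPM. Neutrophil-like cells had 152.3, 89.8 and 65.0 CPM, beside free RNA at 104.6, 39.9 and 123.2 CPM of Cxcl9. The 9 C1q macrophage markers summed to 617.7, 227.8 and 392.2 CPM in KP1 tumor cell-like cells, highest where Cxcl9 was highest. The part of these in the tumor cell values was not tested.

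Cxcl10 was above all a monocyte transcript. Inflammatory monocyte-like cells (1735, 1779 and 1720 cells) had 1116, 1319.8 and 2365.9 CPM of Cxcl10, and C1q macrophage-like cells 38.4, 66.5 and 67.3 CPM. Within a library, the monocyte level was 29.1 (27.4 to 30.9), 19.9 (18.4 to 21.5) and 35.1 (33.4 to 37.0) times the macrophage level. For Cxcl9 the same quotient was 2.06, 1.26 and 1.66, and for Cxcl16 it was 0.356, 0.302 and 0.331. The ligands of CXCR3 were thus higher in monocytes and that of CXCR6 in macrophages, in each of the 3 libraries.

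Between libraries, monocyte Cxcl10 was 1.18-fold (1.16 to 1.21) in the IL-10/2-Trikine against mono-IL-10, inside the limit, and 1.79-fold (1.76 to 1.83) in the combination over the IL-10/2-Trikine. Counted per cell monocytes held 9.02, 8.31 and 17.45 UMIs of Cxcl10, so that the former turned direction. The share of monocytes with a Cxcl10 UMI at 1000 UMIs per cell was 25.6%, 30.7% and 47.1%, and 41.6%, 43.8% and 63.1% without thinning. T cell-like cells had thinned shares of 2.05%, 3.22% and 4.14%. The 10 highest monocytes held only 10.0%, 8.24% and 5.63% of Cxcl10 UMIs, and without them the levels were 1012, 1222.5 and 2249 CPM. The order of the libraries was the same without those cells. Sums of 3 C1q genes in these cells were 1524, 1010 and 2047 CPM, so the combination also had the highest macrophage signal, and its part in the Cxcl9 and Cxcl10 values was not tested.

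Macrophage Cxcl10 lay in fewer cells. The ratio of the IL-10/2-Trikine against mono-IL-10 was 1.73 (1.57 to 1.91), and that of the combination over the IL-10/2-Trikine 1.013 (0.925 to 1.11). Counted per cell they held 0.273, 0.367 and 0.360 UMIs, inside the limit in both comparisons. The 10 highest cells held 31.1%, 45.1% and 25.4% of the UMIs of Cxcl10 in this class. Without them the levels were 26.5, 37.0 and 50.4 CPM, and the former ratio was then below the 1.5-fold limit. These 10 cells are a larger share of the IL-10/2-Trikine class, which had the fewest cells. At an equal share of each class, the highest 42, 18 and 43 cells held 61.7%, 59.8% and 55.5% of the UMIs. No call is therefore drawn from the unequal trim. In resting macrophages Cxcl10 was 38.9, 103.6 and 77.6 CPM, and in cycling ones 37.9, 37.4 and 56.2 CPM. The 10 highest resting macrophages held 47.3%, 58.3% and 35.8% of the UMIs, and without them the levels were 20.6, 44.3 and 50.1 CPM. The combination was then the highest. At an equal share, however, the highest 24, 10 and 26 cells held 68.6%, 58.3% and 58.8%, so that order is not read as a result. A list of 8 inflammatory monocyte markers, none of them at 0, summed to 361.6, 571 and 510.2 CPM in C1q macrophage-like cells, and its part in the Cxcl10 values was not tested.

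Other cells also held Cxcl10, at levels to be read beside free RNA at 90.5, 153.7 and 163.8 CPM. cDC2-like cells had 344.4, 450.5 and 668.5 CPM of Cxcl10, with ratios of 1.31 (1.19 to 1.44) and 1.48 (1.37 to 1.61), both inside the limit. The 10 highest of these cells held 74.0%, 58.1% and 48.8% of the UMIs, and without them the levels were 95.7, 198.8 and 361.1 CPM. These differ by more than the limit in both comparisons. Only 51, 69 and 75 of these cells had a UMI, so the trim took the largest share in mono-IL-10. Its part in the former difference was not tested. Neutrophil-like cells (340, 640 and 113 cells) had 230.4, 521.2 and 802.8 CPM, with 94.8% of the combination's UMIs in its 10 highest cells. T cell-like cells had 39.6, 63.1 and 74.2 CPM of Cxcl10, below free RNA in every library. A UMI was found in 547 of 8323, 1171 of 9926 and 1502 of 12337 of them, with 31, 63 and 75 UMIs in the highest cell. The 83, 99 and 123 highest T cell-like cells held 53.5%, 44.9% and 43.7% of these UMIs. KP1 tumor cell-like cells had 99.8, 77.9 and 111.4 CPM, and 30.8, 25.0 and 54.6 CPM without the 10 highest cells. A UMI of Cxcl10 was found in 76 of 796, 131 of 1000 and 156 of 961 tumor cell-like cells, and the 10 highest held 70.5%, 68.7% and 52.3% of the UMIs.

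Cxcl16 was spread over many macrophages. C1q macrophage-like cells had 364.4, 296.6 and 340.4 CPM of Cxcl16, inflammatory monocyte-like cells 129.6, 89.7 and 112.6 CPM, and cDC2-like cells 221.9, 131.5 and 197.7 CPM. Mature DC-like cells, only 44, 63 and 47 cells, had 565, 223.2 and 602.6 CPM, above macrophages in mono-IL-10 and the combination. In macrophages, monocytes and cDC2-like cells the IL-10/2-Trikine library was the lowest and mono-IL-10 the highest. The ratio of the IL-10/2-Trikine against mono-IL-10 was 0.814 (0.781 to 0.848) in macrophages, 0.692 (0.640 to 0.748) in monocytes and 0.593 (0.512 to 0.686) in cDC2-like cells, and only the last was past the limit. In cDC2-like cells the 10 highest held 35.6%, 26.1% and 25.5% of Cxcl16 UMIs. Without them the levels were 153.3, 103.9 and 157.5 CPM, so that the IL-10/2-Trikine against mono-IL-10 was inside the limit and mono-IL-10 was no longer the highest. The trim took 10 of 179, 269 and 216 cells, the largest share in mono-IL-10, and its part in this was not tested. The combination over the IL-10/2-Trikine gave 1.15 (1.10 to 1.20), 1.25 (1.16 to 1.36) and 1.503 (1.29 to 1.75). Counted per cell, this comparison was inside the limit in each of the classes. The 10 highest macrophages held 1.63%, 4.19% and 1.78% of Cxcl16 UMIs, in contrast to Cxcl10. At 1000 UMIs per cell, 29.0%, 23.7% and 27.9% of macrophages had a UMI of Cxcl16, against 0.296%, 0.119% and 0.264% of T cell-like cells. KP1 tumor cell-like cells had 18.3, 5.20 and 10.2 CPM, under the free RNA at 124.5, 35.7 and 78.4 CPM. Free RNA of Cxcl16 was lowest in the IL-10/2-Trikine library, which also had the smallest share of macrophages, and its part in the Cxcl16 ratios was not tested.

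**Figure D2:**
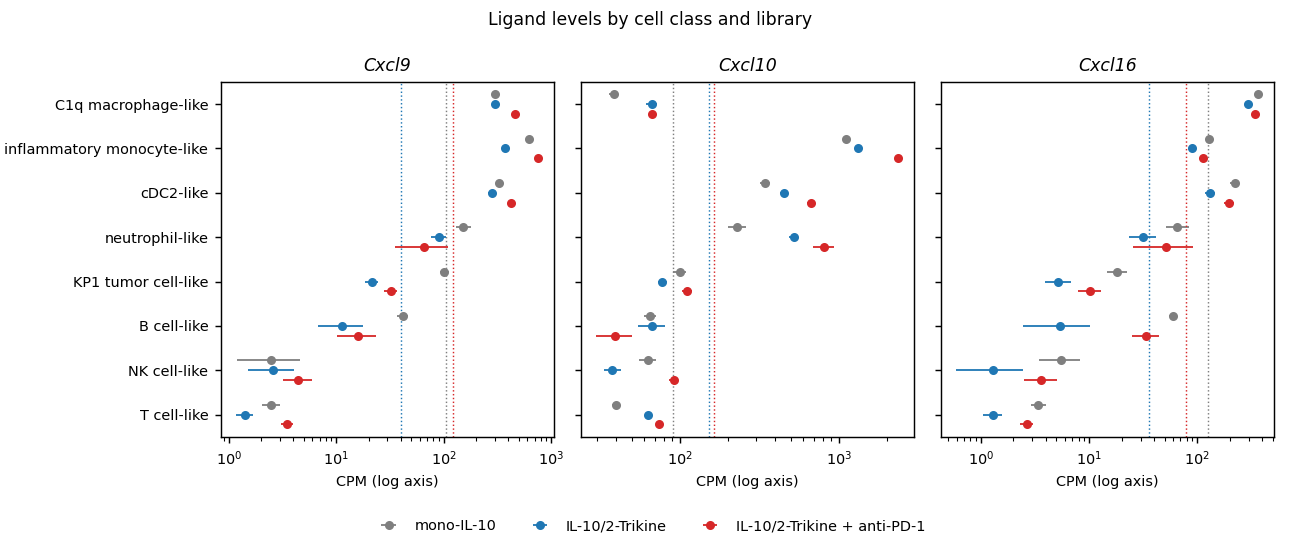
CPM of each ligand (x axis, log scale) in 8 cell classes (y axis) for the 3 libraries. Points are levels, bars are 95% counting intervals and dotted lines are free RNA of the library in its color. Monocyte-like Cxcl10 (1116, 1319.8 and 2365.9 CPM) is the highest of the plotted classes in each library, and among these Cxcl16 is highest in macrophages.

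Detection of 1 ligand went with detection of another within cells. Among monocytes at 1000 UMIs per cell, Cxcl10 was detected in 46.3%, 56.0% and 66.7% of cells with a Cxcl9 UMI and in 21.2%, 26.5% and 40.8% of those without. Among macrophages, Cxcl16 was detected in 41.0%, 37.5% and 39.0% of cells with a Cxcl9 UMI and in 27.1%, 21.6% and 25.1% of those without. The main macrophage clusters also differed. The larger cluster of the class had 338.2, 362.1 and 542.2 CPM of Cxcl9 and the next largest 207, 110.9 and 223.6 CPM, and for Cxcl16 the values were 436.7, 383.9 and 423.3 against 192.6, 115.8 and 170.9 CPM. In each library the larger cluster was the higher for both ligands.

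The ligand calls are given beside the share of all genes past the limit. In C1q macrophage-like cells, 8.91% of all genes were past the limit upward and 5.24% downward in the IL-10/2-Trikine against mono-IL-10, and 4.54% and 6.62% in the combination over the IL-10/2-Trikine. Of the 3 ligands, Cxcl10 was past it upward in the former and Cxcl9 in the latter. In inflammatory monocyte-like cells the percents were 7.53% up and 5.23% down, then 4.35% and 6.66%. Cxcl9 was past it downward in the former, and Cxcl9 and Cxcl10 upward in the latter. In cDC2-like cells they were 6.50% up and 10.7% down, then 5.55% and 9.29%, with Cxcl16 lower in the former and Cxcl9 and Cxcl16 higher in the latter. Counted per cell, both calls in the latter were inside the limit, at 2.62 to 3.69 UMIs of Cxcl9 and 1.23 to 1.72 of Cxcl16. On that scale Cxcl16 was past it downward in the former in macrophages and monocytes too, as given above. No ligand was past the limit downward in the combination in these 3 classes.

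Other genes of the pathway were measured from fixed lists. Of 12 genes of interferon-gamma signaling, all tested in monocytes, 2 were past the limit upward in the IL-10/2-Trikine against mono-IL-10, the transcription factor Irf1 (561.6 to 933 CPM) and the feedback inhibitor Socs1 (107.5 to 316 CPM). In the combination Socs1 was higher still at 577.2 CPM, and it was the 1 gene of the 12 past the limit. These counts stand beside 7.53% and then 4.35% of all genes upward. The list median in monocytes was 0.11 and then 0.09 on the log2 scale, beside 0.02 and -0.04 for all genes. In C1q macrophage-like cells 1 of the 12, Ifng itself, was past the limit, upward and then downward, beside 8.91% and 6.62% of all genes, at 9.82, 66.4 and 4.64 CPM. Ifng is a lymphocyte cytokine, and in the same cells 8 of 8 T cell markers were detected, with a sum of 197, 409.4 and 227.7 CPM. Its part in the Ifng value was not tested.

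Of 5 further ligands and processing genes, 3 were higher in macrophages in the IL-10/2-Trikine against mono-IL-10 and 3 lower in the combination over it, beside 8.91% and 6.62% of all genes. The list median was 0.69 and then -0.65 on the log2 scale, beside 0.04 and -0.02 for all genes. In monocytes 2 of the 5 were higher and 1 lower, then 1 higher and 2 lower, beside 7.53% and 5.23% and then 4.35% and 6.66% of all genes, with list medians of 0.02 and 0.02, beside 0.02 and -0.04 for all genes. Among them Cxcl11, another CXCR3 ligand, had 108.6, 70.6 and 137.3 CPM in monocytes. Its ratios of 0.650 and 1.95 had the order of Cxcl9. The proteases Adam10 and Adam17 stayed inside the limit in macrophages and monocytes. Of 20 other chemokine ligands, 15 were tested in macrophages, and 8 were past the limit upward and 0 downward in the IL-10/2-Trikine against mono-IL-10. Ccl8 had 50.7, 356.5 and 164.9 CPM and Ccl24 3.03, 107.9 and 34.5 CPM, both attractants of other leukocytes. In the combination over the IL-10/2-Trikine, 0 were higher and 6 lower. The shares of all genes were the same 8.91% upward and then 6.62% downward. The list median was 0.76 and then -0.42 on the log2 scale, beside 0.04 and -0.02 for all genes, so in macrophages these ligands did not take the order of Cxcl9. In monocytes 16 were tested, and 2 were higher and 6 lower, then 1 higher and 5 lower, beside the monocyte shares above. The list medians there were -0.21 and -0.26, beside 0.02 and -0.04 for all genes. Of 10 macrophage state genes, 6 were higher and then 6 lower in macrophages, beside the same 8.91% and 6.62% of all genes, with list medians of 1.84 and -0.85. The inflammatory monocyte markers in these cells, at 361.6, 571 and 510.2 CPM, moved with them, and their part was not tested. Ly6c2 and Chil3 stand in both lists, so the lists are not independent. In monocytes 1 was higher and 3 lower, then 5 higher and 0 lower, beside the monocyte shares above, with list medians of -0.04 and 0.58. In macrophages the genes past the limit included Spp1 (5.48, 60.1 and 28.8 CPM) and Arg1 (2.46, 43.9 and 24.7 CPM).

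The receptors were read in T cell gates. A CD8 gate cell had a UMI of Cd8a or Cd8b1 and none of Cd4 or Foxp3, a CD4 gate cell had Cd4 and none of Foxp3 or the Cd8 genes, and a Foxp3 gate cell had Foxp3 and no Cd8 gene. Cycling T cells are deep in UMIs and made up 60.2%, 81.5% and 69.8% of T cell-like UMIs but 38.2%, 52.0% and 41.6% of the cells. CPM over a whole gate is therefore weighted toward cycling cells, most of all in the IL-10/2-Trikine library, and values are given apart for resting cells. In T cell-like cells the median of all genes was itself lower by 0.18 on the log2 scale in the IL-10/2-Trikine than in mono-IL-10. The clusters that held most T cell-like cells also differed, since cluster 0 led in mono-IL-10 (33.5%), cluster 3 in the IL-10/2-Trikine (30.9%) and cluster 1 in the combination (32.8%). Cluster 14, led by Dapl1 and Igfbp4, was 16.6%, 2.22% and 1.98% of T cell-like cells. The part of this mix in the receptor ratios between libraries was not tested.

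Among the CD8, CD4 and Foxp3 gates, Cxcr3 was highest in Foxp3 gate and resting CD8 gate cells, and in CD4 cells it was highest in mono-IL-10 and lowest in the combination. Resting CD8 gate cells (2744, 2248 and 2948 cells) had 105.1, 124.0 and 103.4 CPM of Cxcr3. Ratios were 1.18 (1.08 to 1.28) and 0.834 (0.762 to 0.913), both inside the limit. Resting CD4 gate cells (948, 916 and 1746 cells) had 99.3, 72.1 and 44.1 CPM of Cxcr3. The ratio was 0.726 (0.615 to 0.857) in the IL-10/2-Trikine against mono-IL-10, and 0.611 (0.517 to 0.723), past the limit, in the combination over the IL-10/2-Trikine. Counted per cell, resting CD4 cells held 0.373, 0.269 and 0.194 UMIs of Cxcr3, inside the limit in both comparisons. CD8 and CD4 resting cells were alike in mono-IL-10, with a ratio of 1.06 (0.939 to 1.20), and stood apart by 1.72 (1.49 to 1.99) in the IL-10/2-Trikine and 2.35 (2.07 to 2.66) in the combination.

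Cycling CD4 gate cells had 79.7, 27.7 and 20.6 CPM of Cxcr3, lower than resting CD4 cells on the CPM scale. Counted per cell the order was the other way, with 0.585, 0.372 and 0.228 UMIs in cycling and 0.373, 0.269 and 0.194 UMIs in resting CD4 cells. Over the whole CD4 gate Cxcr3 was 87.8, 35.1 and 27.2 CPM, and the IL-10/2-Trikine stood at 0.400 (0.361 to 0.444) of mono-IL-10. Relative to the median of all genes this log2 difference was -1.14. In this gate and comparison 24.9% of all genes were past the limit downward. Counted per cell, the whole gate held 0.463, 0.328 and 0.211 UMIs of Cxcr3, and the IL-10/2-Trikine was then inside the limit against mono-IL-10. In Foxp3 gate cells (216, 668 and 674 cells) Cxcr3 was 143.6, 99.8 and 65.8 CPM, with ratios of 0.695 (0.599 to 0.810) and 0.659 (0.582 to 0.745). The latter passed the limit, but counted per cell it did not, with 1.14, 0.906 and 0.675 UMIs. Resting Foxp3 gate cells alone had 112.6, 159 and 97.4 CPM, so that in this group of 97, 280 and 277 cells the IL-10/2-Trikine was the highest. In mono-IL-10 the 10 highest of these cells held 62.5% of the UMIs. Without the 10 highest cells of each library the levels were 48.15, 127.3 and 75.66 CPM, with mono-IL-10 then the lowest. Only 27, 106 and 83 cells had a UMI, so the trim took the largest share in mono-IL-10. The new order is therefore not read as a result.

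At 1000 UMIs per cell, the share with a UMI of Cxcr3 was 9.61%, 11.1% and 9.87% in resting CD8, 10.4%, 8.93% and 4.72% in resting CD4 and 11.8%, 10.7% and 8.89% in Foxp3 gate cells. Macrophages, which should lack Cxcr3, had shares of 0.356%, 0.524% and 0.225%. NK cell-like cells (914, 1692 and 2620 cells) had 35.0, 37.7 and 24.7 CPM of Cxcr3, no higher than free RNA at 36.2, 44.6 and 43.4 CPM. Free RNA is the level of near-empty barcodes, so this does not place NK cells at background. The NK shares of 2.57%, 3.61% and 1.87% stood beside 2.15%, 1.74% and 1.97% in B cell-like cells. In the combination over the IL-10/2-Trikine the NK ratio was 0.656 (0.548 to 0.784). NK shares lay near those of B cell-like cells in mono-IL-10 and the combination and above those of macrophages in every library. Cd3e was detected in 21.4% of B cell-like and 14.9% of NK cell-like cells of all libraries together. B cell-like shares are therefore not a clean background, and the part of T cell transcripts in them was not tested. NK cell-like cells with no Cd3 UMI had 28.2, 24.2 and 15.0 CPM of Cxcr3. The cluster led by NK receptor genes and Trdc was higher, with 85.7, 71.0 and 50.1 CPM of Cxcr3 in 386, 3233 and 1482 cells. Cd3e was detected in 80.4% and Trdc in 21.9% of its cells, so its level is not that of NK cells alone.

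Among the CD8, CD4 and Foxp3 gates, Cxcr6 was highest in CD4 gate cells, and its level over all T cells was lowest in the IL-10/2-Trikine library. T cell-like cells had 224.7, 135.6 and 249.6 CPM of Cxcr6. The ratio of the IL-10/2-Trikine against mono-IL-10 was 0.604 (0.588 to 0.620), and that of the combination over the IL-10/2-Trikine 1.84 (1.80 to 1.88). The former became -0.55 on the log2 scale relative to the median of all genes, which is no longer past 1.5-fold. Counted per cell, T cell-like cells held 1.26, 1.14 and 1.58 UMIs of Cxcr6, inside the limit in both comparisons. In resting cells the libraries lay closer. Resting CD8 gate cells had 236.1, 234.4 and 284.5 CPM of Cxcr6, with ratios of 0.993 (0.935 to 1.05) and 1.21 (1.14 to 1.29). Resting CD4 gate cells had 365.2, 380.8 and 562.1 CPM, with ratios of 1.04 (0.965 to 1.13) and 1.48 (1.39 to 1.57), just inside the limit. Counted per cell, resting CD4 cells held 1.37, 1.42 and 2.47 UMIs, so that the combination was past the limit over the IL-10/2-Trikine. Resting CD8 cells held 0.98, 0.80 and 0.93 UMIs. On the CPM scale the low value of the IL-10/2-Trikine was thus in cycling cells.

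Cycling CD8 gate cells had 203.5, 109.3 and 168.9 CPM of Cxcr6, and cycling CD4 gate cells 304.1, 117.0 and 253.8 CPM. The ratios of the IL-10/2-Trikine against mono-IL-10 were 0.537 (0.509 to 0.567) and 0.385 (0.360 to 0.412), and those of the combination over the IL-10/2-Trikine 1.54 (1.46 to 1.64) and 2.17 (2.06 to 2.29). CPM sets a gene against the whole of a cell's UMIs, and cycling cells were deeper in the IL-10/2-Trikine, with medians of 6491, 8886.5 and 6270 UMIs for CD8 and 5306, 11735 and 9571 for CD4. Counted per cell, cycling CD8 cells held 1.76, 1.17 and 1.41 UMIs of Cxcr6 and cycling CD4 cells 2.23, 1.57 and 2.81. The IL-10/2-Trikine was the lowest on this scale too.

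Foxp3 gate cells had 72.1, 109.4 and 138.7 CPM of Cxcr6. From mono-IL-10 to the IL-10/2-Trikine the level was higher, where it was lower over the whole CD4 and CD8 gates. The ratio of the IL-10/2-Trikine against mono-IL-10 was 1.52 (1.25 to 1.85), and that of the combination over the IL-10/2-Trikine 1.27 (1.15 to 1.40). In mono-IL-10 the 10 highest of 216 cells held 60.5% of the UMIs, and 37 cells had any. Without the 10 highest cells of each library the levels were 30.1, 96.4 and 123.3 CPM. Resting Foxp3 gate cells alone had 119.7, 208.6 and 192.6 CPM of Cxcr6, so that the combination was not above the IL-10/2-Trikine there, with a ratio of 0.923 (0.772 to 1.10). In mono-IL-10, 15 of these 97 cells had a UMI and the 10 highest held 90.2% of the UMIs. Without the 10 highest cells of each library the resting levels were 13.8, 156.5 and 144.7 CPM, so the size of the difference from mono-IL-10 rests on those cells. The share with a Cxcr6 UMI at 1000 UMIs per cell was 5.88%, 12.6% and 10.8% in Foxp3 gate cells, 17.5%, 19.1% and 20.4% in resting CD8 and 21.2%, 27.6% and 35.9% in resting CD4. It was 0.407%, 0.466% and 0.450% in macrophages. NK cell-like cells had 27.8, 36.4 and 33.6 CPM of Cxcr6, under free RNA at 57.3, 72.1 and 89.6 CPM, and 15.3, 16.7 and 19.5 CPM where no Cd3 UMI was present. Their shares of 1.57%, 2.71% and 2.08% lay under those of B cell-like cells, 3.18%, 4.65% and 3.94%, and above those of macrophages. As for Cxcr3, the B cell-like shares are not a clean background, since Cd3e was detected more often there than in NK cell-like cells.

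**Figure D3:**
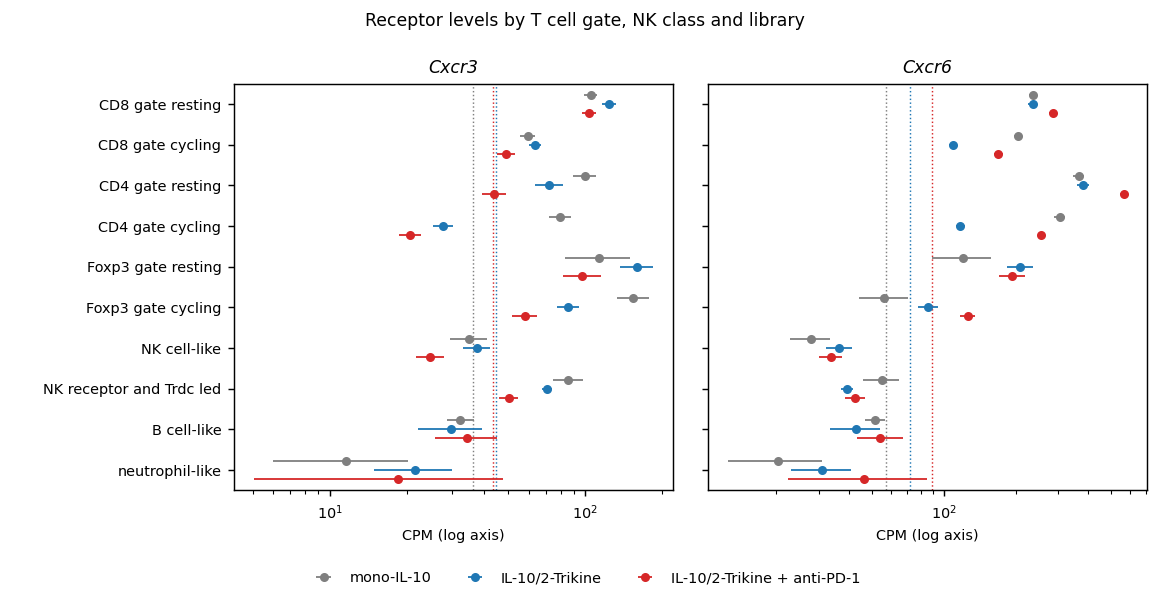
CPM of each receptor (x axis, log scale) by cell group (y axis) for the 3 libraries. Groups are T cell gates split by cycling genes, and NK cell-like, B cell-like and neutrophil-like cells. The cluster led by NK receptor genes and Trdc, with Cd3e in 80.4% of its cells, is also shown. Points are levels, bars are 95% counting intervals and dotted lines are free RNA of the library in its color. Cxcr6 in resting CD4 cells reaches 562.1 CPM in the combination, and NK cell-like cells lie at or left of the free RNA lines. The lines are levels of near-empty barcodes, not the background of a cell.

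In resting CD8 cells the receptors ran in opposite directions along a pair of state genes, Tcf7, a transcription factor of naive, memory and progenitor cells, and Havcr2, which encodes the inhibitory receptor TIM-3. Cells with Tcf7 and no Havcr2 (1099, 597 and 628 cells) had 118.8, 152.5 and 145.0 CPM of Cxcr3 and 111.3, 94.95 and 125.8 CPM of Cxcr6. Cells with Havcr2 and no Tcf7 (453, 345 and 506 cells) had 61.8, 84.9 and 61.6 CPM of Cxcr3 and 434, 398.8 and 443.2 CPM of Cxcr6. The former group was 1.92-fold (1.60 to 2.32), 1.80-fold (1.46 to 2.22) and 2.35-fold (1.91 to 2.91) higher in Cxcr3, and stood at 0.256 (0.230 to 0.286), 0.238 (0.2003 to 0.282) and 0.284 (0.246 to 0.326) of the latter in Cxcr6. The opposite order of the receptors was seen in all 3 libraries. Cxcr3 had 519, 281 and 294 UMIs in the former group and 154, 140 and 136 in the latter. Counted per cell, Cxcr3 kept its direction but was past 1.5-fold in the combination only, while Cxcr6 was past it in every library. A cell without a UMI of a state gene may still express it, and these groups were split on detection.

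**Figure D4:**
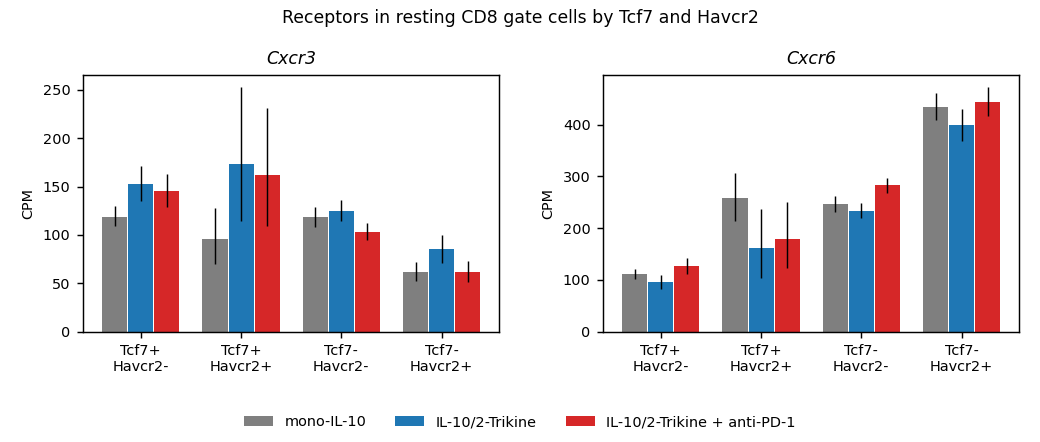
CPM of Cxcr3 (left) and Cxcr6 (right) on the y axis in resting CD8 gate cells split by detection of Tcf7 and Havcr2 (x axis), for the 3 libraries. Bars are levels and lines are 95% counting intervals. Cxcr3 is lowest and Cxcr6 highest in Tcf7- Havcr2+ cells of every library.

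In CD4 gate cells Cxcr6 was set against Pdcd1, which encodes PD-1, and the costimulatory receptor gene Icos. Resting cells with both (256, 381 and 935 cells) had 618.8, 439.9 and 609.1 CPM of Cxcr6, and resting cells with neither (254, 105 and 164 cells) 94.7, 320 and 363.9 CPM. The quotient was 6.53 in mono-IL-10, 1.37 in the IL-10/2-Trikine and 1.67 in the combination. The level in Pdcd1+ Icos+ cells was alike in mono-IL-10 and the combination, and what differed most was the level in cells with neither. Cluster 14 was a larger share of T cell-like cells in mono-IL-10, and its part in that difference was not tested. For Cxcr3 the same cells had 88.3, 51.8 and 35.2 CPM with both genes and 68.1, 80.0 and 73.9 CPM with neither. With cycling cells included, the quotient for Cxcr6 was 4.35 (3.62 to 5.26), 0.757 (0.635 to 0.909) and 1.27 (1.09 to 1.48), so its direction in the IL-10/2-Trikine turned with the cycling cells. Resting CD4 cells with a UMI of Cxcr3 at 1000 UMIs per cell had Cxcr6 in 12.1%, 22.5% and 21.8%, and those without it in 22.3%, 28.1% and 36.6%. These shares come from 78 to 91 cells with Cxcr3. Their intervals overlapped in mono-IL-10 (6.19% to 20.6% with Cxcr3 and 19.4% to 25.3% without) and in the IL-10/2-Trikine (13.9% to 33.2% and 25.0% to 31.3%), and lay apart in the combination (13.2% to 32.6% and 34.2% to 39.0%). In resting CD8 cells the shares were 16.4%, 19.3% and 16.3% with Cxcr3 and 17.6%, 19.1% and 20.8% without.

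The receptor calls stand beside a wide background. In T cell-like cells, 9.32% of all genes were past the limit upward and 21.8% downward in the IL-10/2-Trikine against mono-IL-10, and 9.27% and 5.34% in the combination over the IL-10/2-Trikine. Cxcr6 was past it downward and then upward, and Cxcr3 stayed inside with 0.734 (0.704 to 0.765) and 0.822 (0.788 to 0.857). Counted per cell, Cxcr3 was 0.472, 0.518 and 0.323 UMIs, so that the former turned direction and the latter passed the limit. Cxcr6, at 1.26, 1.14 and 1.58 UMIs per cell, was inside the limit in both comparisons. In resting CD8 cells the percents were 4.04% up and 14.4% down, then 8.41% and 4.24%, and neither receptor was past the limit in either comparison. In resting CD4 cells they were 6.69% and 15.6%, then 6.97% and 5.00%, and Cxcr3 in the combination was the 1 receptor past it. Counted per cell, the call there was Cxcr6 (1.42 to 2.47 UMIs) and not Cxcr3 (0.269 to 0.194 UMIs). In Foxp3 gate cells they were 6.31% and 13%, then 4.58% and 3.51%, with Cxcr6 higher in the former and Cxcr3 lower in the latter. In NK cell-like cells they were 7.27% and 8.56%, then 5.76% and 5.87%, with Cxcr3 lower in the latter.

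**Figure D5:**
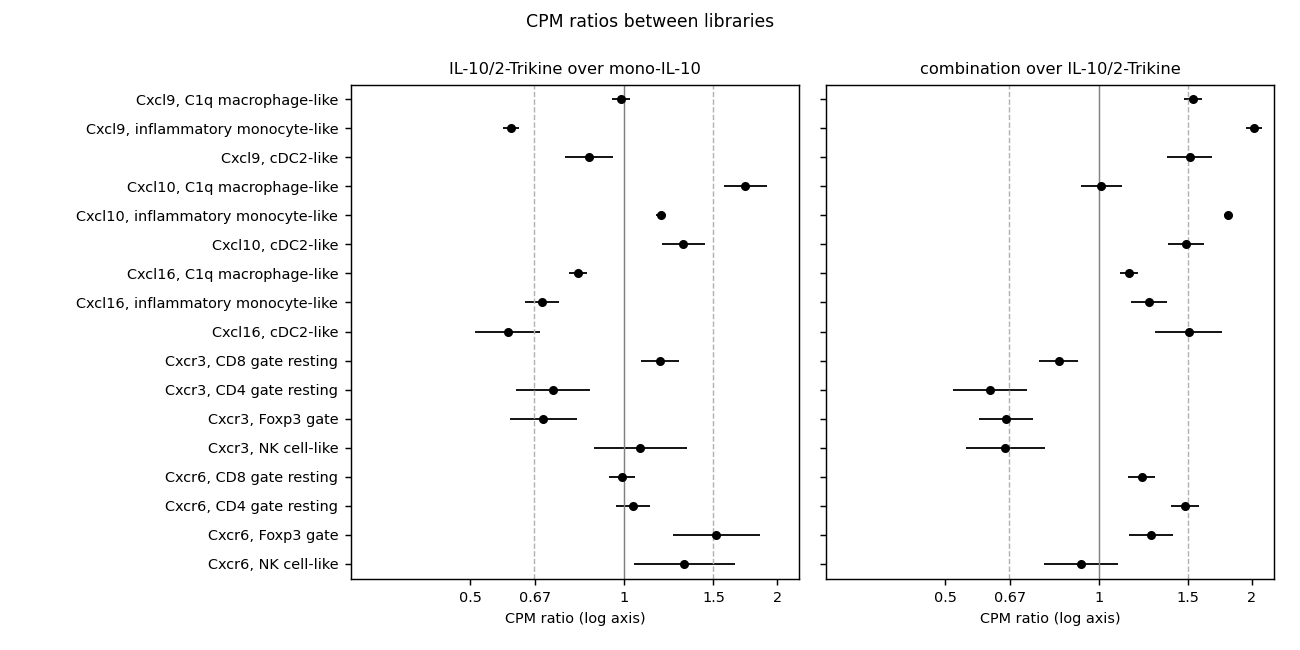
CPM ratios of each ligand and receptor (x axis, log scale) by cell class or gate (y axis), left for the IL-10/2-Trikine against mono-IL-10 and right for the combination over the IL-10/2-Trikine. Points are ratios, bars are 95% counting intervals, and dashed lines mark 1.5-fold either way. On the right, Cxcl9 lies at 1.51 to 2.01 in all 3 myeloid classes and Cxcr3 lies left of 1 in every lymphocyte group.

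Of 10 genes of receptor control and signaling in T cell-like cells, 0 were past the limit upward and 2 downward in the IL-10/2-Trikine against mono-IL-10, the transcription factor gene Zeb2 and Rgs16, a regulator of G protein signaling. These 2 of 10 stand beside 21.8% of all genes downward. None of the 10 was past it in the combination over the IL-10/2-Trikine. Tbx21, which encodes T-bet, an activator of Cxcr3, was inside the limit in T cell-like, resting CD8 and resting CD4 cells in both comparisons. Of 15 other chemokine receptors, 14 were tested in T cell-like cells, and 3 were higher and 8 lower in the IL-10/2-Trikine, with Cxcr4 (222.9 to 336.8 CPM) among the former, beside 9.32% and 21.8% of all genes. The median of this list was -0.67 on the log2 scale, beside -0.18 for all genes. In resting CD4 cells 5 of 11 tested were higher and 3 lower, beside 6.69% and 15.6% of all genes. The list median there was 0.47, beside -0.12 for all genes. In resting CD8 cells 0 of 8 were higher and 2 lower, beside 4.04% and 14.4%, with a median of -0.04, beside -0.13. Of the 12 interferon-gamma genes, 6 were lower in T cell-like cells in the IL-10/2-Trikine, beside 21.8% of all genes, and 2 of the 12 were higher in the combination over it, beside 9.27%. The list medians were -0.57 and 0.44, beside -0.18 and 0.06 for all genes. In resting CD8 cells 3 of 11 tested were lower and then 5 of 12 higher, beside 14.4% and 8.41% of all genes, with list medians of -0.50 and 0.49, beside -0.13 and 0.03 for all genes.

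The genes most like each member were read from 34 sums of a class in a library with at least 50 cells, over 6988 genes, by Pearson's r of log2(CPM + 1). These sums share libraries and depth, so r is a description. Cxcl9 was most like Myof (r = 0.963) and Gatm (0.954), and Cxcl16 (0.939) was also among its 5 nearest genes. Cxcl16 was most like Bcl2a1a (0.949) and Aif1 (0.943). Cxcl10 was most like Tarm1 (0.880), and its r with Cxcl9 was 0.582, lower than that of Cxcl9 with Cxcl16. Cxcr3 was most like Cd247 (0.866), a chain of the T cell receptor complex, and Cxcr6 most like Icos (0.939) and Ctla4 (0.914), both genes of activated T cells. The receptors had r = 0.551 with each other.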

How the data were processed

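Single-cell 3′ RNA-seq of 3 libraries was read from the count matrices the authors deposited, which hold whole-number UMI counts per gene and barcode, not normalized and with empty droplets. The file headers name Cell Ranger 8.0.0, and the submitters' processing notes name mm10. The methods name another version and build, so no coordinates were taken from the files. Every deposited column was mapped to a labelled library.

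Cells were kept at 200 genes or more and at most 20% mitochondrial UMIs. Counts were scaled to 10000 per cell and clustered on 2000 variable genes without the members, 30 principal components, 20 neighbors and Leiden resolution 1, giving 23 clusters (scanpy 1.11.5, leidenalg 0.10.2, Python 3.11.15). A cluster was called "-like" from at least 3 markers that were 1.5-fold over other cells and in at least 10% of its own. Clusters of mixed markers were set apart, and no cells were removed as doublets. UMIs were summed per class and library and given as CPM. Ratios carry exact conditional binomial 95% intervals, and shares were taken after thinning to 1000 UMIs (scipy 1.17.1). The calculations were tested on simulated data. edgeR 4.0.16 served for TMM factors only. With 1 library per group no test was run, and intervals cover counting error only, since deeper classes have narrower intervals but no replicate.

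The named genes were the 5 members, genes of 6 fixed pathway lists past 1.5-fold with 20 UMIs in the pair, and the 5 genes most like each member. Members and lists were chosen with earlier results of these data known. The alternatives were other cell filters, class definitions, scalings, thinning depths and UMI minimums. Some listed genes are not reported here by name.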

Additional observations from a re-analysis of the deposited data

Results flagged for a closer look

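The Cxcr6 difference between the mono-IL-10 and IL-10/2-Trikine libraries ran in opposite directions between whole T cell gates, which are weighted toward cycling cells. The log2 CPM ratio was 0.60 in Foxp3 gate cells, -0.64 in CD8 gate cells and -1.03 in CD4 gate cells. Beside these, 6.31% of all genes were past the limit upward in the Foxp3 gate. Downward it was 17.6% in the CD8 gate and 24.9% in the CD4 gate. Counted per cell, Cxcr6 went from 1.27 to 0.981 UMIs in CD8 and from 1.74 to 1.51 in CD4 gate cells, both inside the limit. In resting cells the levels in these 2 libraries were 119.7 and 208.6 CPM in the Foxp3 gate, 236.1 and 234.4 CPM in the CD8 gate and 365.2 and 380.8 CPM in the CD4 gate, and the ratios were 1.74, 0.993 and 1.04. Without the 10 highest cells the Foxp3 gate level in mono-IL-10 was 30.1 CPM in place of 72.1 CPM. The resting Foxp3 gate levels in these 2 libraries were then 13.8 and 156.5 CPM, so the size of the resting ratio rests on those cells. The difference between gates was not tested, since each group is 1 library.

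Signals also lay in classes with few cells. Fibroblast-like cells, which a CD45+ sort should remove, had 1751.6, 6918.3 and 15186.0 CPM of Cxcl9 in mono-IL-10, the IL-10/2-Trikine and the combination, from only 3, 2 and 4 cells. Mature DC-like cells (44, 63 and 47 cells) had 565, 223.2 and 602.6 CPM of Cxcl16. ILC2-like cells (36, 113 and 38 cells) had 519.8, 349 and 266.4 CPM of Cxcr6. Each of these levels was above free RNA of its library.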

How the results depend on the processing

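Log2 CPM ratios are given as the IL-10/2-Trikine against mono-IL-10 and then the combination over the IL-10/2-Trikine, in C1q macrophage-like cells for ligands and T cell-like cells for receptors. The reported values were -0.02 and 0.61 for Cxcl9, 0.79 and 0.02 for Cxcl10, -0.30 and 0.20 for Cxcl16, -0.45 and -0.28 for Cxcr3, and -0.73 and 0.88 for Cxcr6. With cells free of Mki67 and Top2a only, the direction turned for Cxcr6 in the former comparison (0.069), Cxcr3 in the former (0.14) and Cxcl10 in the latter (-0.42). Cxcr6 was 0.50 and Cxcr3 -0.53 in the latter, Cxcl10 was 1.42 in the former, Cxcl16 -0.13 and 0.071, and Cxcl9 turned from -0.02 to 0.0075 in the former and was 0.74 in the latter. With classes from marker UMIs per cell, Cxcl9 was -0.18 and 0.72, Cxcr6 -0.91 and 1.002, Cxcl10 0.66 in the latter and Cxcl16 -0.41 in the former. At Leiden resolution 2, Cxcr3 was -0.14 and -0.42 and Cxcr6 -0.61 and 0.80. With median-of-ratios size factors, Cxcr3 was -0.24 and -0.36, Cxcr6 -0.53 and 0.81, and in the former comparison Cxcl9 was -0.080 and Cxcl16 -0.36. With TMM factors, Cxcr6 was -0.55 and 0.82, and in the former Cxcl9 was -0.094, Cxcl16 -0.37 and Cxcr3 -0.27. As a mean over cells, Cxcr3 was -0.048 and -0.37, Cxcr6 -0.23 and 0.59, and Cxcl10 0.23 in the latter. Without the 10 cells highest in the gene, an alternative chosen after seeing the data, Cxcl9 was -0.14 and 0.76 and Cxcl10 0.48 and 0.45. These 10 cells are a larger share of the macrophages in the IL-10/2-Trikine, which had the fewest, so this trim is unequal between libraries. The cause of these moves was not tested.

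Of 9 alternatives, the Cxcl9 ratio of the combination kept its direction and passed 1.5-fold in 9, the Cxcr6 ratio of the combination passed it in 8, and the Cxcr6 ratio of the IL-10/2-Trikine in 5. None of the 9 counted UMIs per cell, and on that scale each of these ratios was inside the limit. The automatic doublet call marked 12.51% of cells in mono-IL-10 and none in the other libraries and was not used. Leaving out the 10% highest doublet scores per library, chosen after seeing the data, moved no ratio beyond its counting interval. Among shares of cells and percents of genes past the limit, 122 values moved with thinning depth or UMI minimum and 8 did not. No paired analysis was possible because each group is 1 library, and no library could be left out.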
